A study of Mus musculus with 2 samples.

Results

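The DNA replication genes are 31 genes that cells switch on as they pass from G1 into S phase, taken from a list of G1/S genes as those present in both count matrices, and they make up 31 of the 31053 genes in those matrices. They were followed in female mice by single-cell sequencing of dorsal skin, with 1 wild-type library (WT) and 1 library of Chrna5-/- mice, whose deleted gene encodes an accessory subunit of nicotinic acetylcholine receptors. Both groups were 6 to 8 weeks old, received vaseline, the base of a cream, on the back, and were sampled on day 7. The knockout line had been backcrossed to C57BL/6N for more than 10 generations and was kept by heterozygous crosses. The labels also name the strain as C57BL/6 and, in the extraction text, as C57BL/6J, and that text speaks of skin given imiquimod, where the title and the sample labels name vaseline. No source used here gives how many mice were pooled for a library or which part of Chrna5 was deleted. With 1 library per genotype there was no replicate check and no test. Every ratio below is the knockout library over the WT library, and every interval is a 95% interval that covers counting error only, so each difference is between these 2 libraries.

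DNA is copied once per cell cycle. In G1 the origin recognition complex, of which Orc6 is a subunit, works with Cdc6 and Cdt1 to load the ring of Mcm2 to Mcm7 onto origins, which licenses them. Cdc45, the GINS complex (Gins2) and Mcm10 then turn this ring into the moving helicase, primase and polymerase alpha (Prim1, Pola1) start each strand, Rfc4 belongs to the loader of the sliding clamp Pcna, and Fen1 and Lig1 join the fragments of the lagging strand. Ribonucleotide reductase (Rrm1, Rrm2), thymidylate synthase (Tyms) and thymidine kinase (Tk1) supply deoxynucleotides, while Chaf1b, Uhrf1, Hells and Slbp serve the rebuilding of chromatin and its DNA methylation and the histone messages. E2f1, a transcription factor of S phase entry, cyclins E1 and E2 (Ccne1, Ccne2), the ubiquitin ligase receptor Dtl and the checkpoint adaptor Clspn control the phase. In skin, cycling keratinocytes lie mainly in the basal epidermis, the outer root sheath and the hair matrix.

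Many of these genes are known targets of E2F factors, so their promoters were read from RefSeq (GRCm38.p6), over the 250 bases before the first listed start. Of the 31 genes 28 were matched, and Mcm4, Gins2 and Ccne2 were not. An E2F-type word, TTT followed by 2 bases that are each C or G and then CGC, on either strand, occurred in 7 of 28 (25%), against 1.91% of 27025 promoters of that length. These 7 were Cdc6, Mcm5, Mcm6, Mcm7, Pola1, Hells and Dtl. By the GENCODE gene coordinates, the windows of Cdc6 and Mcm7 lie wholly within the annotated gene and that of Hells partly. The window of E2f1, which holds no such word, also lies within its gene. The CCAAT box occurred on either strand in 17 of 28 (60.7%) against 34.5% of all promoters, and TTTGAA, a word of cell cycle promoters, in 3 of 28 (10.7%) against 16.3%. The members' promoters had a median GC content of 58.2% against 52%, which was not matched for in these shares. The stretch of 180 bases before the start is shown for 4 helicase genes on which the keratinocyte results turn, with E2F-type, CCAAT and TTTGAA words in capitals. Mcm5 and Mcm6 hold overlapping E2F-type words, Mcm2 and Mcm3 hold none, and no stretch overlaps an annotated exon. Mcm2 lies on chr6:88898781-88898960 (minus strand), Mcm3 on chr1:20820313-20820492 (minus), Mcm5 on chr8:75109329-75109508 (plus) and Mcm6 on chr1:128359706-128359885 (minus).
Mcm2: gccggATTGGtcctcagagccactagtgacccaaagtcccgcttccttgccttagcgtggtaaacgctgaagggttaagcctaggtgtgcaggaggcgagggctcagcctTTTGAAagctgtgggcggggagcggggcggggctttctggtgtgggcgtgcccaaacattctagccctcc
Mcm3: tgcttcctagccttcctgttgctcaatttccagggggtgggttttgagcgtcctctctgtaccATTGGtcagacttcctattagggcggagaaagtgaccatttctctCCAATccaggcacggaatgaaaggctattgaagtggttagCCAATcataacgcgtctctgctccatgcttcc
Mcm5: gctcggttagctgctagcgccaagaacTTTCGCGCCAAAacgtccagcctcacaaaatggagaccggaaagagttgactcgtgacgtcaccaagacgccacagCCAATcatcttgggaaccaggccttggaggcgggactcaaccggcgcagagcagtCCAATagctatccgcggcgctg
Mcm6: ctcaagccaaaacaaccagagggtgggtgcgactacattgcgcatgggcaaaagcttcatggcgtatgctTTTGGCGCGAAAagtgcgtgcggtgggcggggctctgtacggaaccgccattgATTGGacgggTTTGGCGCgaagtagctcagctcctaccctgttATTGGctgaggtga
A match is a description of these letters, not a site in use. In the keratinocyte pool described below all 7 members with the E2F-type word had a log2 ratio below 0 (from -0.51 to -0.03, median -0.26). Of the 21 matched members without it 14 were below 0 and 7 above (from -0.66 to 0.22, median -0.08), so the groups overlapped, and the 2 lowest members, Mcm2 and Mcm3, have no such word. This tally was made after the values had been seen and is a description with no test.

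The WT library held 10741 barcodes with 139673385 UMIs (molecules counted after removal of PCR copies) and the knockout library 9696 with 125458721, at medians of 12245 and 12223.5 UMIs per barcode. After filtering, 9673 and 8869 cells were kept, and 28 WT and 30 knockout cells among them had one of the 34 barcodes that both libraries share. Chrna5 (chromosome 9:54980880-55007779, plus strand) gave 11 UMIs in the WT and 2 in the knockout library, too few to check the labels firmly. The keratinocyte pool held 7604 WT and 7004 knockout cells, with Krt5 at 6526 and 6672 CPM (a gene's UMIs scaled to a common total of UMIs in each pool) and Krt14 at 12056 and 12419, while Ptprc, the leukocyte antigen, stood at 0.902 and 0.829. The lymphoid pool held 756 and 665 cells, with Cd3e at 1606 and 1895 CPM and Trdc, the constant chain of the gamma delta T cell receptor, at 2315 and 3171. Clusters are given by number and leading genes, because the leading genes of some were not those of their nearest keratinocyte subclass. The 31 genes and all other listed cell cycle genes were left out of the genes used for clustering. A gene counted as measured in a pool at 20 or more UMIs over both libraries, and as higher or lower where the CPM differed at least 1.5 times and the interval of the ratio did not hold 1. Beside a cluster's counts at full depth stands the share of all its measured genes that met the same rule. Counts after thinning, with clusters left out or under another setting have such a share only where one is printed. Without it they cannot be set against a background.

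In the keratinocyte pool the DNA replication genes were slightly lower in the knockout library, with the helicase ring of Mcm2 to Mcm7 at the lowest summed ratio. Summed over the 31 genes the level was 956 CPM in WT and 866 CPM in the knockout, a ratio of 0.905 (interval 0.897 to 0.913). All 31 were measured, 0 were higher and 2 were lower, Mcm2 and Mcm3, with 29 neither. Of all 14619 measured genes 10.5% were higher or lower (2.67% higher, 7.78% lower), so the count of called members was no larger than the background. The median log2 ratio of the 31 was -0.16 against -0.04 over all genes, with 23 below 0 and 8 above.

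Mcm2, a helicase subunit that also binds histones, stood at 28.2 CPM in WT and 17.9 in the knockout (ratio 0.635, interval 0.600 to 0.672). Mcm3 went from 40.0 to 26.7 CPM (0.666, 0.636 to 0.698), at the edge of the fold limit. Mcm5 (37.4 and 26.3 CPM, 0.703) and Mcm6 (41.5 and 31.7 CPM, 0.763) followed them. Mcm4 (39.5 and 33.0 CPM, 0.837) and Mcm7 (36.6 and 32.8 CPM, 0.897) lay nearer to 1. The subunits of 1 ring thus differed in size of ratio but all lay below 1, and their summed ratio was 0.754 (0.740 to 0.769). The loaders differed among themselves, with Cdt1 at 0.859, Cdc6 at 0.834 on only 273 and 210 UMIs, and Orc6 at 1.14 (1.10 to 1.18).

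Among the other roles, helicase activation summed to a ratio of 0.863 (0.826 to 0.902), fork enzymes to 0.947 (0.931 to 0.964) and deoxynucleotide supply to 1.01 (0.987 to 1.02). The 4 genes of chromatin and histone messages summed to 0.823 (0.804 to 0.842). Chaf1b, a subunit of the chromatin assembly factor that follows the fork, went from 13.9 to 9.67 CPM (0.696), and Uhrf1, which reads hemimethylated DNA behind it, from 38.1 to 27.5 CPM (0.721). The S phase control genes summed to 1.01 (0.975 to 1.04) with members on both sides of 1: E2f1 was at 9.94 and 6.96 CPM (0.700), Clspn at 27.7 and 32.2 CPM (1.16, 1.11 to 1.22). Clspn and Orc6 had the highest ratios of the 31 and Mcm2 and Mcm3 the lowest.

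**Figure D1:**
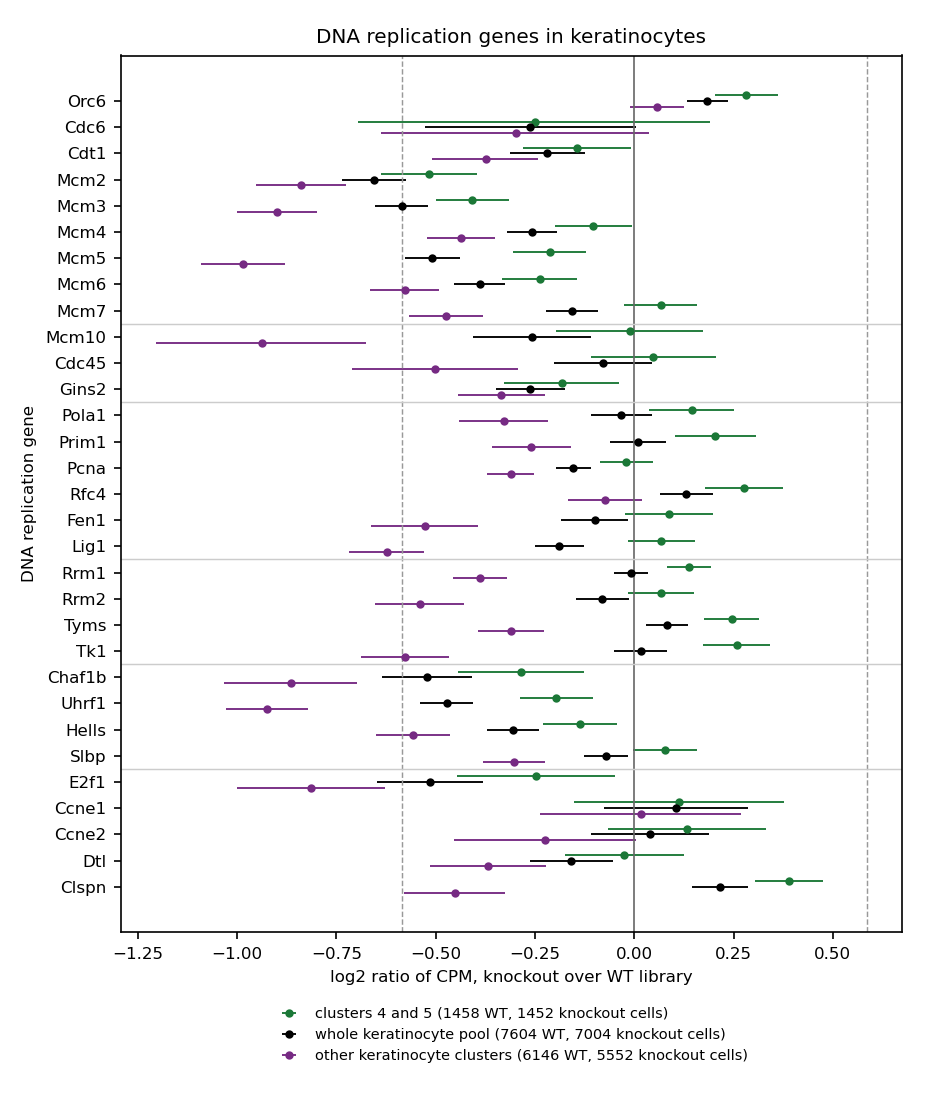
Ratio of CPM, knockout over WT library, on a log2 axis, for the 31 DNA replication genes grouped by role, in the whole keratinocyte pool (black), in clusters 4 and 5 (green) and in the other keratinocyte clusters (purple). Bars are 95% counting intervals and dashed lines mark the fold limit of 1.5; for nearly all genes the purple point lies left of the green one, and Mcm5 and Mcm10 lie furthest left in the other clusters.

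The pool's value also carries its makeup, which differed between the libraries. Among the clusters with many member UMIs, cluster 4 gave 865 WT and 631 knockout cells, cluster 6 623 and 222, cluster 13 843 and 571, and cluster 19 132 and 52, whereas cluster 5 gave 593 and 821. Among those with fewer, cluster 7 gave 1524 and 558 cells and cluster 11 217 and 793. With every cluster weighted alike the median log2 ratio turned to 0.070 and 0 members were lower. When clusters 6, 13 and 19 were left out, the median was -0.11 and 3 members were lower. Mcm2 stayed at a log2 ratio of -0.24 under equal weights and Mcm3 at -0.23, both below 0 but inside the fold limit. With each cell thinned to 5000 UMIs the summed ratio was 0.878 (0.863 to 0.893) and 5 members were lower.

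The member sum was close to level in the 2 large clusters led by genes of dividing cells and lower in the other clusters pooled. Clusters 4 and 5 (1458 WT and 1452 knockout cells) were led by genes of dividing cells such as Pclaf, Birc5, Cdk1, Nusap1 and Aspm. There the members summed to 1657 and 1699 CPM (1.03, 1.01 to 1.04), and 0 were higher, 0 lower and 31 neither, where 7.14% of all genes were called (2.84% higher, 4.3% lower). Mcm2 (43.6 and 30.5 CPM, 0.699) and Mcm3 (70.9 and 53.5 CPM, 0.754) were again the lowest of the 31, and Clspn (63.9 and 83.7 CPM, 1.31) the highest. In the other keratinocyte clusters (6146 and 5552 cells) the members summed to 706 and 519 CPM, a ratio of 0.736 (0.727 to 0.745). Of the 31, 29 lay below a log2 ratio of 0 and the median was -0.45, against -0.06 over all genes. The other clusters are not free of dividing cells, since cluster 19 among them had G2 and mitosis genes at 6016 CPM in WT, beside 5902 in cluster 4. The larger cluster 13 among them had those genes at 4124 CPM in WT. Its members summed to 1450 CPM in WT, with a ratio of 0.917. Without cluster 19, but with cluster 13 kept, the other clusters summed to 661 and 500 CPM (0.757, 0.747 to 0.767), with 7 members lower. This split was chosen after the values had been seen.

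In those other clusters 8 members were lower, against 8.33% of all 14216 genes (2.59% were higher, 10.9% called). Of the helicase and its activators, Mcm5 went from 27.5 to 13.9 CPM (0.505, 0.469 to 0.543), Mcm10 from 4.44 to 2.32 (0.522), Mcm3 from 29.0 to 15.5 (0.536) and Mcm2 from 22.7 to 12.7 (0.559). Of the chromatin genes, Uhrf1 went from 27.9 to 14.7 CPM (0.527) and Chaf1b from 10.6 to 5.83 (0.549). E2f1 went from 8.20 to 4.67 CPM (0.569), and Lig1, the ligase of the lagging strand, from 29.7 to 19.3 CPM (0.649). Orc6 (1.04) and Ccne1 (1.01) were the 2 members above 1. Thinned to 5000 UMIs per cell the summed ratio was 0.747 and 11 members were lower. The makeup named above lies mostly within these clusters, and its part in their summed ratio was not tested apart from the clusters' own values, which follow. Their pooled ratio of 0.736 was below the summed ratio of each of these clusters taken singly, except cluster 7 (0.707) and cluster 9 (0.689).

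Taken singly, 12 keratinocyte clusters had at least 100 cells in both libraries, and the member median lay below 0 in 10 of them (83.3%). After thinning to 1500 UMIs per cell it lay below 0 in 6 of 12 (50%), and after thinning to 5000 UMIs in 8 of 12 (66.7%), so the direction in the clusters near 0 was not stable. Mcm2, Mcm4, Mcm6 and Uhrf1 were below 1 in 11 of the 12 clusters, Mcm3 and Mcm5 in 10 of 12, and E2f1 and Chaf1b in 10 of the 11 where they were measured. Mcm5, Mcm6 and Tk1 were each called lower in 5 clusters. Rfc4 was below 1 in 1 of 12, Orc6 in 2 of 12 and Ccne1 in 0 of 9, and Clspn (3 of 12), Ccne2 (3 of 9) and Pola1 (4 of 12) were also above 1 in most clusters. The members thus did not all go one way.

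**Figure D2:**
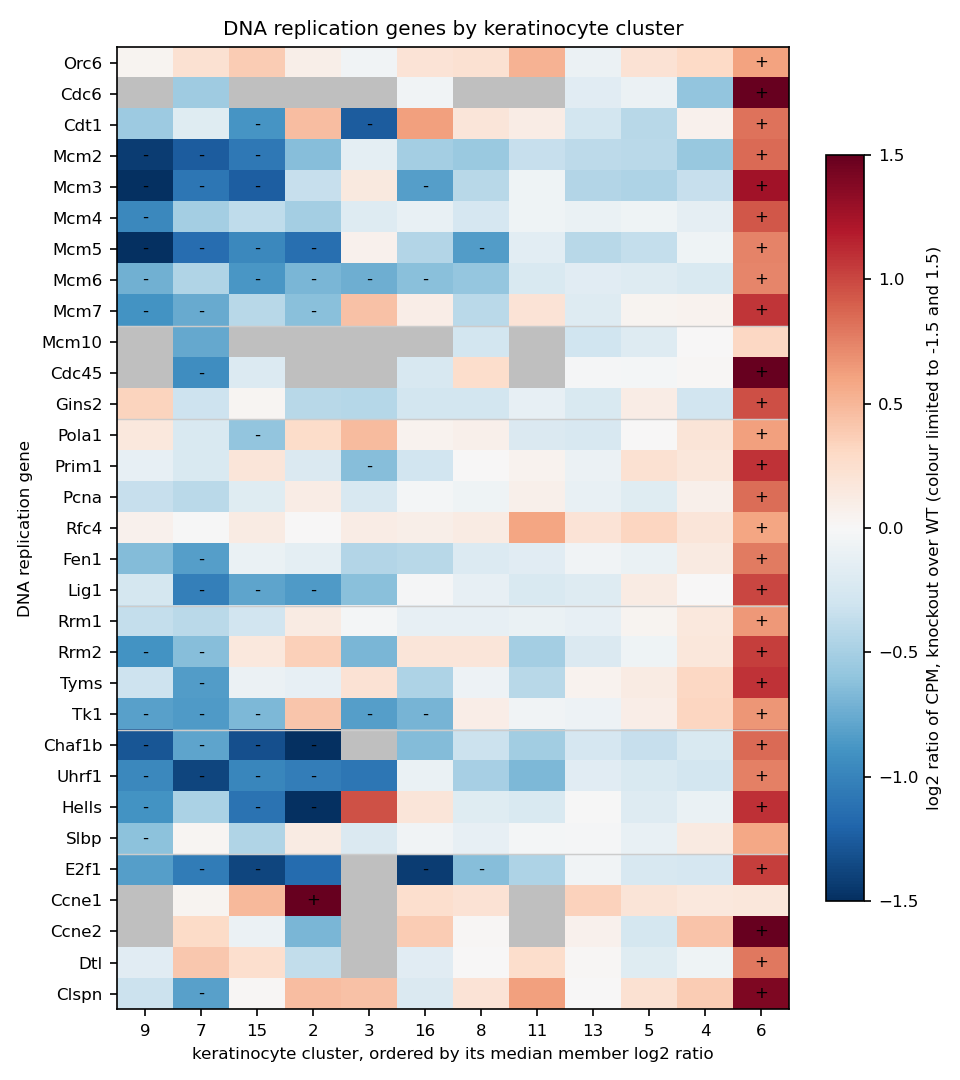
log2 ratio of CPM, knockout over WT library, of each DNA replication gene (rows, by role) in each keratinocyte cluster with at least 100 cells in both libraries (columns, ordered by the member median). Blue is lower and red higher in the knockout library, + and - mark genes called higher or lower, grey marks genes under 20 UMIs; 28 genes carry a + in cluster 6, and the - marks gather in clusters 9, 7, 15 and 2.

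The members were lower as a group in cluster 7, led by Tnip3, Ch25h, Itgb6, Itga2 and Epgn (1524 WT and 558 knockout cells). Their sum went from 739 to 522 CPM (0.707), with 14 of 31 lower and 0 higher, where 5.33% of genes were lower, 5.16% higher and 10.5% called in all. Uhrf1 stood at 28.0 and 10.8 CPM (0.385, 0.297 to 0.492) and Mcm2 at 30.4 and 12.8 CPM (0.422, 0.333 to 0.529). Mcm5 (0.451), Mcm3 (0.470), Mcm7 (0.592) and Cdc45 (0.522) were lower among the helicase genes, and E2f1 (0.483) and Clspn (0.571) among the control genes. The fork genes Lig1 (0.491) and Fen1 (0.564), the nucleotide genes Tk1 (0.554), Tyms (0.559) and Rrm2 (0.642), and Chaf1b (0.578) completed the 14. Dtl (1.33) and Ccne2 (1.22) had the highest ratios, neither of them called. Thinned to 5000 UMIs per cell the summed ratio was 0.728 (0.684 to 0.775), with 11 members lower and 1 higher. Epgn, an epidermal growth factor receptor ligand among the leading genes, was also lower there, at 1396 and 764 CPM. The chemokine Ccl20, not a leading gene of this cluster, was at 410 and 89.8 CPM. The part of these genes in the result was not tested. At resolution 2, clusters that share leading genes with this one held 603 and 55, 416 and 189, and 307 and 334 cells. How the cells of cluster 7 divide among such parts, and what this adds to the result, was not tested.

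In cluster 9, led by Dlk2, Slc4a8 and Ndufa4l2 (270 and 304 cells), 12 of 26 measured members were lower, 4.04% of genes being lower, 2.46% higher and 6.5% called there, and the sum went from 682 to 470 CPM (0.689). All 6 ring subunits were among them, with Mcm3 at 35.2 and 11.7 CPM (0.332), Mcm5 at 30.2 and 10.7 (0.354) and Mcm2 at 25.1 and 9.35 (0.372), then Mcm4 (0.512), Mcm7 (0.539) and Mcm6 (0.607). Chaf1b (0.411), Uhrf1 (0.510), Hells (0.536), Slbp (0.655), Rrm2 (0.536) and Tk1 (0.570) were the others. Cluster 15, led by Zfp750, Krt1 and Krt10 (424 and 510 cells), had 12 of 29 lower, with 4.07% of genes lower, 3.44% higher and 7.51% called, and its sum went from 404 to 322 CPM (0.799). The lowest there were E2f1 (27 and 12 UMIs, 0.385) and Chaf1b (41 and 19 UMIs, 0.401). The ring subunits Mcm3 (0.425), Mcm2 (0.477), Mcm5 (0.511) and Mcm6 (0.546) followed, with Hells (0.466), Uhrf1 (0.506), Cdt1 (0.543), Lig1 (0.580), Tk1 (0.627) and Pola1 (0.664). Mcm2, Mcm3, Mcm5, Chaf1b, Uhrf1 and Tk1 were lower in clusters 7, 9 and 15, whereas Mcm6 and Hells were lower in 9 and 15 but not in 7, and Mcm7 in 7 and 9 but not in 15. The levels were low, with 12 to 138 UMIs per called member and library in cluster 15. Thinned to 5000 UMIs per cell, the sums stayed lower in cluster 9 (0.721, 0.633 to 0.821) and cluster 15 (0.831, 0.749 to 0.923). Only 6 members were then lower in cluster 9 and 1 in cluster 15. Median depth in cluster 9 was 8965.5 UMIs in WT and 10803 in the knockout, and this thinning left out 111 of its 270 WT and 69 of its 304 knockout cells. Its leading genes also included the melanocyte gene Pmel, and the part of cell quality or of other cells' messages was not tested.

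Fewer members were called in 4 further clusters. In cluster 2 (led by Klk7, Krt79 and Defb6) 7 of 28 were lower, where 3.77% of genes were lower, 2.82% higher and 6.59% called: Chaf1b (35 and 5 UMIs, 0.275), Hells (0.338), Mcm5 (0.458), Uhrf1 (0.489), Lig1 (0.553), Mcm6 (0.622) and Mcm7 (0.647). Ccne1 was higher there on 15 and 23 UMIs (2.95, 1.47 to 6.07). In cluster 3 (Mt4, Krt77, Acer1) 4 of 23 were lower, with 3.71% of genes lower, 2.45% higher and 6.16% called: Cdt1 (0.420), Tk1 (0.563), Mcm6 (0.604) and Prim1 (0.641). In cluster 16 (Sprr1b, Asprv1, Endou) 4 of 30 were lower, with 4.46% lower, 3.88% higher and 8.34% called: E2f1 (0.372), Mcm3 (0.565), Tk1 (0.618) and Mcm6 (0.647). In cluster 8 (Dlk2, Il1r2, Procr) 2 of 30 were lower, Mcm5 (15.2 and 8.52 CPM, 0.560) and E2f1 (0.640), with 2.4% lower, 3.72% higher and 6.13% called. Thinned to 5000 UMIs per cell, cluster 2 had a summed ratio of 0.973 (0.851 to 1.11) with 0 members higher and 0 lower. Cluster 3 gave 0.966 (0.827 to 1.13) with 1 lower, and cluster 16 0.993 (0.885 to 1.11) with 0 lower and 1 higher. Those intervals hold 1. Cluster 8 gave 0.915 (0.852 to 0.983) with 1 lower.

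In clusters 4, 5, 11 and 13 0 members were higher and 0 lower. In cluster 4, where 6.29% of all genes were called (2.48% higher, 3.81% lower), the lowest were Cdc6 (0.663) and Mcm2 (0.674) and the highest Ccne2 (1.34) and Clspn (1.31). In cluster 5 (7.76% called, 2.36% higher, 5.4% lower) Mcm3 (0.728) and Cdt1 (0.752) were lowest and Rfc4 (1.25) and Prim1 (1.17) highest. In cluster 11, led by C2cd4b, Fbxo32 and Ackr3 (6.77% called, 3.14% higher, 3.64% lower), the extremes were Uhrf1 (0.628) and Chaf1b (0.695) against Clspn (1.53) and Rfc4 (1.51). In cluster 13, led by Vsnl1, Cacna2d2 and Fst (6.53% called, 3.43% higher, 3.11% lower), they were Mcm3 (0.736) and Mcm5 (0.747) against Ccne1 (1.28) and Rfc4 (1.15). The highest levels of most members were in cluster 19, led by the inner root sheath keratins Krt28 and Krt25, where 27 of 31 peaked in WT and 27 in the knockout, 25 of them in both. It had only 52 knockout cells and summed to 3039 and 3232 CPM (1.06). Chaf1b (0.525) and Uhrf1 (0.655) were its 2 lower members, where 2.65% of genes were lower, 3.63% higher and 6.27% called.

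Cluster 6 went the other way. This cluster, led by the hair follicle stem cell genes Lhx2, Lgr5 and Tbx1 with Shisa2 (623 WT and 222 knockout cells), had its member sum at 1023 CPM in WT and 1872 CPM in the knockout (1.83, 1.76 to 1.91). Of 31 members 28 were higher and 0 lower, where 8.78% of genes were higher, 5.09% lower and 13.9% called, and all 31 lay above a log2 ratio of 0. Thinned to 5000 UMIs the ratio was 1.80 and 20 members were higher.

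The 2 largest ratios in cluster 6 were those of a helicase loader and a helicase activator. Cdc6 stood at 20 and 32 UMIs (3.72, 2.06 to 6.86) and Cdc45, which completes the active helicase, at 6.73 and 24.1 CPM (3.58, 2.30 to 5.65). Mcm3 went from 30.8 to 73.7 CPM (2.40, 1.92 to 3.00), Mcm7 from 43.6 to 91.5 (2.10), Mcm4 from 50.9 to 96.9 (1.90) and Mcm2 from 31.5 to 56.7 (1.80). Mcm5 (1.68), Mcm6 (1.66), Gins2 (1.95), Cdt1 (1.76) and Orc6 (1.51) were also higher. Mcm2 was above 1 in this cluster alone of the 12, and Mcm3 in this cluster and, at 1.11, in cluster 3.

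The later roles moved with them in cluster 6. The fork genes were Prim1 (2.12), Lig1 (2.00), Pcna (1.79), Fen1 (1.72), Pola1 (1.53) and Rfc4 (1.51). The nucleotide genes were Tyms (2.12), Rrm2 (2.05), Tk1 (1.58) and Rrm1 (1.57). Hells (2.13), Chaf1b (1.80), Uhrf1 (1.69), Ccne2 (2.81), Clspn (2.63), E2f1 (2.05) and Dtl (1.73) completed the 28, and Mcm10 (1.24), Slbp (1.49) and Ccne1 (1.13) were the 3 not called. Median depth was 7144 UMIs in WT and 8008.5 in the knockout. Markers of the outer root sheath and bulge did not move alike, with Lhx2 at 437 and 504 CPM and Lgr5 at 207 and 238, but Fst at 325 and 137, Postn at 525 and 309 and Cd34 at 83.8 and 55.8. All 8 markers of that list were found in both libraries, summing to 2845 and 2357 CPM. At resolution 2 the cluster fell into a part of 517 and 188 cells with a summed ratio of 2.32 (2.20 to 2.44) and a part of 103 and 33 cells with 1.25 (1.16 to 1.34). The part that follicle position has in the difference was not tested.

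**Figure D3:**
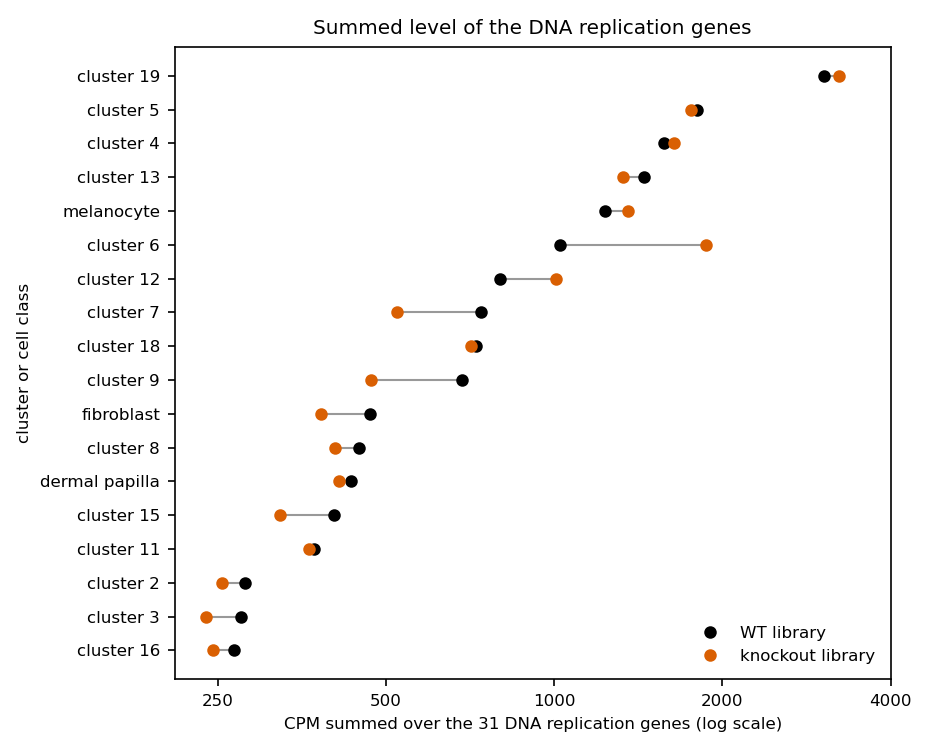
Level summed over the 31 DNA replication genes, in CPM on a log axis, in each keratinocyte (2 to 9, 11, 13, 15, 16 and 19) and lymphoid (12 and 18) cluster and in 3 other cell classes, with WT in black and the knockout in orange. Cluster 19 is highest at 3039 and 3232 CPM, and cluster 6 has the widest gap with the knockout on the right.

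A summed level can differ because fewer cells hold the messages or because each holds fewer. Cells thinned to 5000 UMIs, which left out 669 WT and 656 knockout cells of lower depth, were therefore counted as in the replicating range at 10 or more member UMIs. This is a range on a continuous score and not a cell type. In the keratinocyte pool 1018 of 6935 WT cells (14.7%, 13.9 to 15.5) and 743 of 6348 knockout cells (11.7%, 10.9 to 12.5) lay in the range, a ratio of shares of 0.797 (0.724 to 0.877). Without thinning the ratio was 0.848, over 33.8% and 28.7% of cells. Cells with 8 to 12 member UMIs, near the limit, numbered 614 and 428. In dermal papilla cells 0.733% and 1.47% lay in the range. The share was 35.0% in WT and 34.9% in the knockout for clusters 4 and 5 (ratio 0.997, 0.879 to 1.13), and 9.35% and 5.01% for the other clusters (0.536, 0.459 to 0.625). It went from 13.2% to 27.3% in cluster 6 and from 8.34% to 3.04% in cluster 7. Clusters 4 and 5 thus held 49.5% of the WT cells in the range and 66.8% of the knockout cells.

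Below the range most members also had fewer messages per cell, but not all. With each gene left out of its own range, 24 of 31 members had a ratio per cell below 1 in keratinocytes below it, 12 of them with an interval below 1. Orc6 (1.15, 1.06 to 1.24), Rfc4 (1.14, 1.02 to 1.28) and Tyms (1.13, 1.02 to 1.25) had an interval above 1. In the range 13 of 31 were below 1 and 18 above. The cells in the range gave Mcm2 at a ratio of 0.837 (0.716 to 0.978) per cell, while cells below it gave 0.589 (0.506 to 0.685). E2f1 stood at 0.971 (0.762 to 1.23) in the range and 0.504 (0.378 to 0.668) below it. In the clusters other than 4 and 5 the cells in the range had Mcm2 at 1.03 (0.814 to 1.29) and Uhrf1 at 0.978 (0.808 to 1.18), and those below it 0.562 and 0.540. Mcm5 was below 1 on both sides, at 0.822 (0.665 to 1.01) and 0.447 (0.368 to 0.540). Cells in the range were picked in both libraries for holding many messages of the other members. The split therefore cannot separate fewer cells with the messages from fewer messages in each. Cells below the range also pool clusters of unequal makeup, such as cluster 11 with 217 and 793 cells.

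Set against genes of G2 and mitosis, the lower share in the whole pool lay mainly in cells with replication messages and few mitotic ones. Keratinocytes with at least 10 member UMIs and under 10 UMIs of 45 G2 and mitosis genes made up 5.38% of WT cells (4.86 to 5.94) and 2.66% of knockout cells (2.28 to 3.09). Cells with both made up 9.30% and 9.04%, and cells with the mitotic genes only 16.5% and 18.6%. In clusters 4 and 5 the replication-only share was 7.71% and 3.87%, although the whole range held 35.0% and 34.9% there, and the mitosis-only share 44.5% and 55.1%. The G2 and mitosis genes themselves had a summed ratio of 1.39 (1.38 to 1.39) in clusters 4 and 5. Its part in how cells fell to either side of the mitotic limit was not tested. In the other clusters the replication-only share was 4.77% and 2.31%, and cells with both were fewer too, at 4.59% and 2.70%. The lower share there was thus not confined to replication-only cells.

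**Figure D4:**
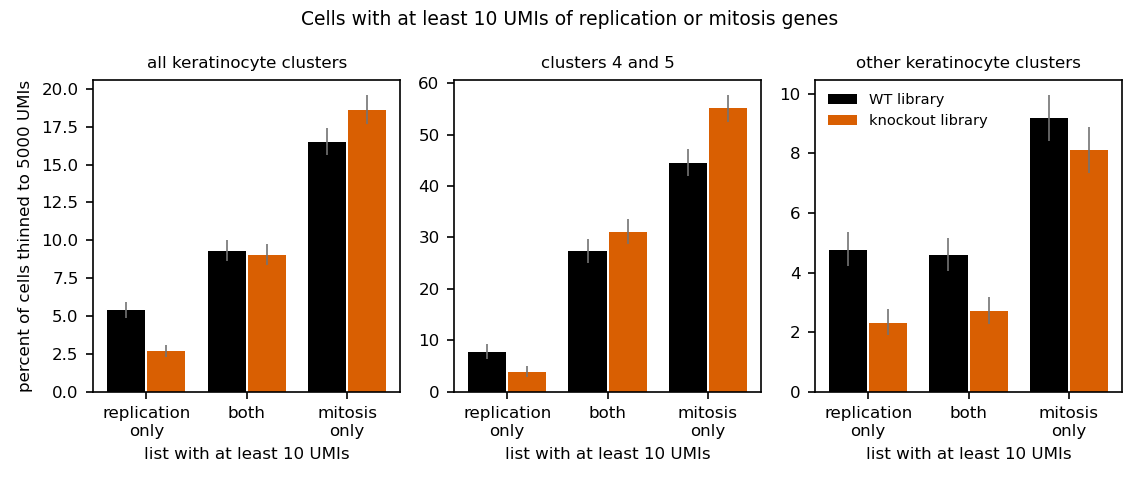
Percent of keratinocytes, thinned to 5000 UMIs, with at least 10 UMIs of the DNA replication genes, of the G2 and mitosis genes, or of both, for WT (black) and knockout (orange), with 95% Clopper-Pearson intervals; the 3 panels have different vertical scales. The replication-only bar is lower in the knockout library in each panel, at 2.66% against 5.38% in all keratinocytes.

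In lymphoid cells the members were higher in the knockout library. Their sum was 765 CPM in WT and 933 CPM in the knockout (1.22, 1.14 to 1.30), and the median log2 ratio was 0.31 against 0.01 over all genes. Of 28 measured members 6 were higher and 0 lower, where 4.62% of 9495 genes were higher, 6.54% lower and 11.2% called. Cdc6, Mcm10 and Ccne1 were under 20 UMIs. The pool is shallow, with medians of 2652.5 and 2743 UMIs per cell, and after thinning to 1500 UMIs the sum stayed higher (1.19, 1.06 to 1.34) but 0 members did.

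Ccne2, the cyclin E2 of S phase entry, had 15 UMIs in WT and 37 in the knockout (2.74, 1.47 to 5.37). Rrm2 had 34 and 60 UMIs (1.96, 1.26 to 3.08), Clspn 23 and 39 (1.88, 1.10 to 3.30) and Prim1 33 and 55 (1.85, 1.18 to 2.94). Mcm6 had 49 and 76 UMIs (1.72, 1.19 to 2.52) and Orc6 54 and 75 (1.54, 1.07 to 2.23). The higher members came from loading, priming, nucleotide supply and control, and rest on 15 to 76 UMIs in each library. The other ring subunits were not called, with Mcm4 at 1.35, Mcm3 at 1.25, Mcm7 at 1.23, Mcm5 at 1.04 and Mcm2 at 0.984 (0.650 to 1.48). Pcna, the sliding clamp, stood at 84.2 and 114 CPM (1.35, 1.11 to 1.66). Chaf1b (20 and 11 UMIs, 0.610) and Cdt1 (52 and 34 UMIs, 0.725) had the lowest ratios, with intervals that hold 1.

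Cluster 12, led by Cd7, Trdc, Cd3e, Trdv4 and Tcrg-C1, genes of gamma delta T cells, had 431 and 484 cells. Its members summed to 799 and 1009 CPM (1.26), with 7 of 27 higher where 2.71% of genes were higher, 5.08% lower and 7.79% called. These were Ccne2 (6 and 35 UMIs, 4.68), Clspn (2.22), Rrm2 (2.03), Prim1 (1.97), Orc6 (1.81), Tyms (1.76) and Mcm6 (1.70). Cluster 18, led by Icos, Il7r and Cd28 (325 and 181 cells), summed to 726 and 708 CPM (0.976), and 2 of 18 were higher, Pola1 (9 and 14 UMIs, 3.13) and Mcm6 (24 and 23 UMIs, 1.93), with 6.49% of genes higher, 5.85% lower and 12.3% called. Whether the clusters differ in response was not tested.

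Messages of other cells also differed between the libraries. In the lymphoid pool the 8 basal keratinocyte markers, all found in both libraries, summed to 2481 CPM in WT and 1211 CPM in the knockout, with Krt14 at 1261 and 548. The 7 Langerhans cell markers summed to 2427 and 226 CPM, although Cd207, which defines those cells, stood at 3.25 and 3.09. In cluster 12 the Langerhans markers were at 92.1 and 84.3 CPM and in cluster 18 at 5168 and 643, so the Langerhans list was near level in cluster 12. The T and innate lymphoid markers of cluster 18 were at 4457 and 4649 CPM, so in WT they stood below its Langerhans list. Whether WT cluster 18, and with it the lymphoid pool, holds cells other than lymphoid ones was not tested. The basal keratinocyte markers were lower in the knockout there as well, at 1952 and 1094 CPM, and the melanocyte markers at 484 and 196. With 5% free RNA subtracted 7 members were higher in the pool, and beyond these values the part of other cells' messages was not tested. Thinned to 1500 UMIs, 0 of 556 WT lymphoid cells, which by the limit of 3 counts allows a share of up to 0.540%, and 4 of 488 knockout cells (0.820%) held 10 or more member UMIs. The limit was not lowered for this depth, where the mean member sum was 1 and 1.19 UMIs and the highest 9 and 16. These shares therefore cannot be set beside those at 5000 UMIs. Among the few cells with 5000 UMIs, 13 of 58 and 21 of 69 lay in the replicating range, a ratio of 1.36 (0.649 to 2.95), not detectable as a difference at this depth.

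**Figure D5:**
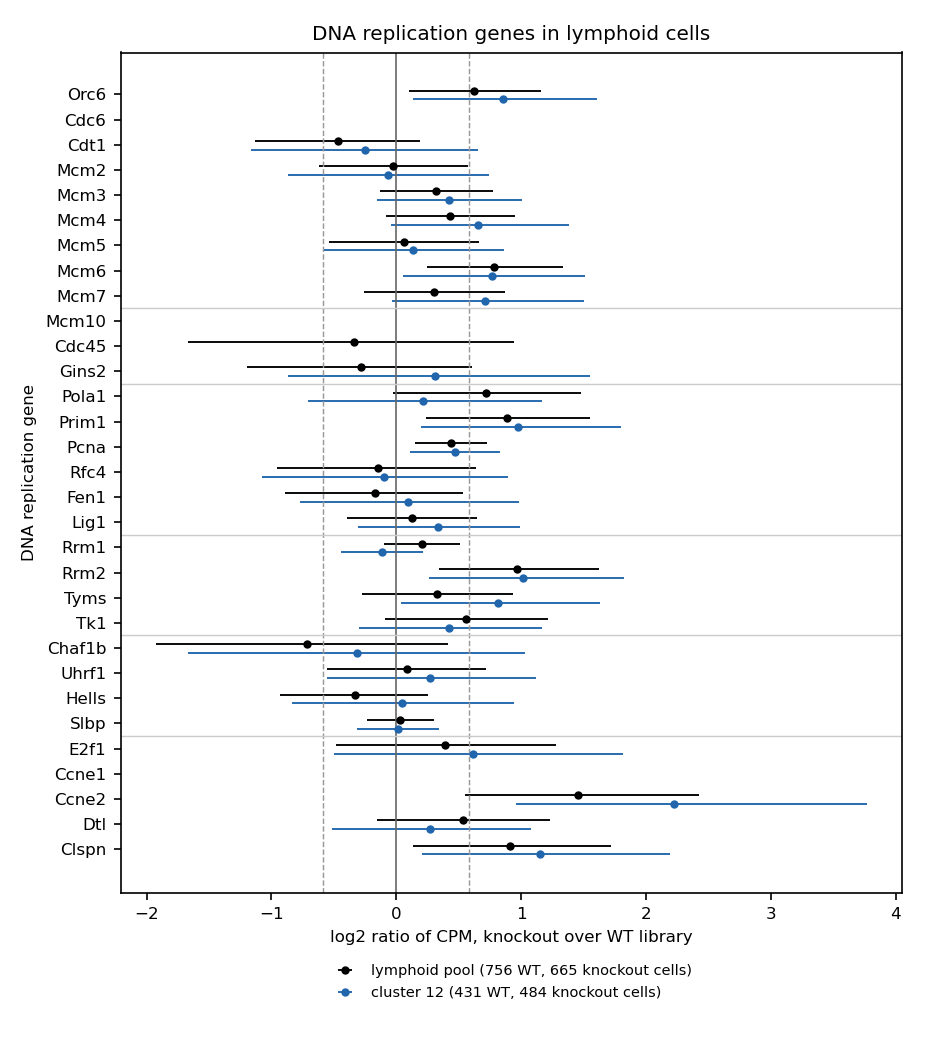
Ratio of CPM, knockout over WT library, on a log2 axis, for the DNA replication genes in the lymphoid pool (black) and in cluster 12 (blue), with 95% counting intervals and dashed lines at the fold limit of 1.5; genes under 20 UMIs have no point. Ccne2 lies furthest right, at a ratio of 2.74 in the pool and 4.68 in cluster 12, and most intervals hold 1.

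The rest of the pathway was read from lists around these genes, whose counts stand beside the background given above, 2.67% higher and 7.78% lower in keratinocytes and 4.62% and 6.54% in lymphoid cells. Of 53 other genes of the replication machinery 0 were higher, 0 lower and 53 neither in keratinocytes, with a summed ratio of 0.984 (0.978 to 0.991). Pold2, a subunit of polymerase delta (0.747), and Dna2, a nuclease of fragment processing (0.829), were the lowest, and Dbf4, the activator of the Cdc7 kinase (1.22), and Recql4 (1.15) the highest. In cluster 6 31 of the 53 were higher, where 8.78% of that cluster's genes were higher. In cluster 7 13 of 52 were lower, where 5.33% of its genes were lower. In lymphoid cells 2 of 43 were higher, near the background, Orc1 (2.47), the largest origin recognition subunit, and Asf1b (1.98), a histone chaperone, and Rnaseh2a, a subunit of ribonuclease H2, stood at 0.703 without being called. The 31 members thus sat below the other machinery in the keratinocyte pool by median, -0.16 against -0.03 on the log2 scale.

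Of 34 genes of E2F, Rb and cyclin-dependent kinase control, 2 were lower in keratinocytes, the kinase inhibitor gene Cdkn2a (0.209) and cyclin D1, Ccnd1 (0.660), and 2 higher, the inhibitor Cdkn2d (1.61) and the E2F partner Tfdp2 (1.53). Their summed ratio was 0.992. In lymphoid cells 1 of 27 was higher, Lin54 (1.55), and E2f6 (2.03), Cdc25a (1.85), E2f2 (0.624) and E2f4 (0.734) had the extreme ratios without being called. Of 20 genes of replication stress and repair 1 was lower in keratinocytes, the uracil glycosylase Ung (0.631), with Fanci at 0.817, Brca2 at 1.49 and Fancd2 at 1.14. In lymphoid cells 2 of 15 were higher, Bard1 (2.50) and Blm (1.78), beside Chek1 (2.08), Rad18 (0.951) and Atr (0.838), which were not called.

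The 45 genes of G2 and mitosis went with the members in some cells and against them in others. In the keratinocyte pool 5 were higher, among them Cenpf (1.68), a centromere protein, and Kif20b (1.65), a kinesin of cytokinesis, and 0 lower, with a summed ratio of 1.30 (1.29 to 1.30), Hjurp (0.878) and Gtse1 (0.963) being lowest. Outside clusters 4 and 5, pooled, they summed to 0.945, with 0 higher and 0 lower, but these clusters differed when taken singly. The summed ratio was above 1 in clusters 3 (1.29), 6 (1.65), 8 (1.73), 9 (1.20), 13 (1.21), 15 (1.41) and 16 (1.29). It was below 1 in clusters 2 (0.955, 0.902 to 1.01), 7 (0.506), 11 (0.940) and 19 (0.926). In clusters 8, 9 and 15 the mitotic sum was thus higher where the member sum was lower. In cluster 7 40 of 45 were lower, beside 5.33% of its genes, and in cluster 6 28 of 45 were higher, beside 8.78%. In lymphoid cells 22 of 42 were higher and 1, Anln (0.525), lower, with Aurkb at 2.85, Kif20b at 2.50 and Aurka at 0.924. The 15 histone messages, made mainly in S phase, had 0 called in keratinocytes (summed ratio 1.04), between Hist1h1c (0.833) and Hist1h2ap (0.905) and Hist1h1a (1.29) and Hist1h3e (1.28). Outside clusters 4 and 5, pooled, 8 of 15 were lower (0.772, 0.765 to 0.778), where 8.33% of genes were lower. That pooled ratio was below the summed histone ratio of each of these clusters taken singly, except cluster 7 (0.670). The others ran from 0.872 in cluster 9 to 1.15 in cluster 6, and the part of makeup in the pooled value was not tested. In lymphoid cells Hist1h3c (3.12) was higher and Hist1h2bc (0.457) lower, with Hist1h3e at 1.52 and Hist1h4i at 0.709.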

How the data were processed

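Single cells were measured in 2 libraries of vaseline-treated mouse skin, grouped by the genotype in the sample titles. The deposited matrices hold raw UMI counts of each gene in each barcode, without normalization per the file headers. The submitters' processing notes name Cell Ranger 3.0.2, the mm10 build and, with no stated role, Seurat 3.0, while the matrix headers give software version 3.1.0. The members and lists were chosen with earlier results of these data known.

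Cells with at least 500 UMIs, 300 genes and at most 20% mitochondrial UMIs were kept. Scrublet scores of 0.25 and above, a limit set after seeing the data, removed 487 WT (4.79%) and 439 knockout cells (4.72%). Cells were clustered in scanpy 1.11.5 with igraph 0.11.9 (2000 variable genes without listed cell cycle genes, 30 components, 15 neighbours, resolution 1) and named from fixed marker lists. Counts were summed per pool and library and divided as CPM, with exact conditional binomial 95% intervals for ratios and Clopper-Pearson intervals for shares (Python 3.11.15 with pandas 2.3.3, scipy 1.17.1 and numpy 2.4.6). For ratios, a sum of 0 became 3. The calculation was tested on simulated counts.

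All members are counted. Those named with values are Mcm2 to Mcm7, each member higher or lower in keratinocytes, a keratinocyte cluster or lymphoid cells, and the 2 highest and 2 lowest in each, and likewise the 2 highest and 2 lowest genes of each other list, of which 1 is not reported here. Members named for other ratios were chosen after their values were seen. Alternatives covered scaling, depth, filters, clustering, call rules and clusters left out. Gene coordinates come from GENCODE vM21 and promoters from RefSeq (GRCm38.p6).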

Additional observations from a re-analysis of the deposited data

How the results depend on the processing

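No paired analysis was possible because each genotype has 1 library, and no replicate could be left out for the same reason. The alternatives that leave out or isolate clusters were chosen after seeing the data. The 2 lower members of the keratinocyte pool became 1 with a TMM factor, with a median-of-ratios factor, with doublets kept, at resolution 2, without cluster 7 and without cluster 19, since Mcm3 lies at the fold limit. They became 5 with cells thinned to 1500 or 5000 UMIs and with the mean over cells, 8 without clusters 4 and 5, 7 without clusters 4, 5 and 19, and 0 at a fold of at least 2 or with clusters weighted alike. The pool's median log2 ratio of -0.16 reversed to 0.070 with clusters weighted alike, and was -0.22 with the mean over cells, -0.45 without clusters 4 and 5 and -0.42 without clusters 4, 5 and 19. The 6 higher lymphoid members became 2 at a minimum of 100 UMIs and in cluster 18 alone, 1 at a fold of at least 2 and 0 after thinning to 1500 UMIs. The 0 lower lymphoid members became 2 with the mean over cells, and 1 with clusters weighted alike and with the fold read without its interval. The share of keratinocyte clusters with a median below 0 moved from 83.3% to 50% after thinning to 1500 UMIs, and the ratio of shares in the replicating range from 0.797 to 0.887 at a limit of 20 UMIs. Of 1195 other values under the alternatives 1016 stayed, 150 moved and 29 fell short of the fold limit. The cause of these changes was not tested, except that thinning leaves fewer UMIs per gene and a fold of 2 admits fewer genes. Depth limits the lymphoid values, where a called member rests on 15 to 76 UMIs per library.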
